A study of Homo sapiens with 6 samples.

Results

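This account covers 10 genes of the pericellular matrix in ovarian clear cell carcinoma cells: the heparan sulfate proteoglycans AGRN (agrin), HSPG2 (perlecan), SDC1, SDC2, SDC3 and SDC4 (syndecans 1 to 4), GPC1 and GPC4 (glypicans), and the nidogens NID1 and NID2. They were chosen by gene symbol, and all 10 had a probe, 13 probes of 48803 on the array and 10 genes of 18852 with a named probe. The list was selected on knowledge of the log2 differences between the 2 groups of these arrays, so the differences below describe the members and are given without a test of them. Of the 13 probes, 9 from 8 genes were detected on at least 3 of the 6 arrays and entered the fit, beside 21928 probes in all. Each of these 9 was detected on all 6 arrays.

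RNA came from OVSAYO, a human cell line derived from an ovarian clear cell carcinoma, 48 hours after transfection with a lipid reagent. In the inhibitor group (3 cultures) the cells received 44 nM of a hairpin inhibitor of hsa-mir-30a together with 22 nM of one against hsa-mir-30d, and in the control group (3 cultures) they received 66 nM of the negative control hairpin inhibitor, a sequence from a worm microRNA. All the cultures thus carried the same total inhibitor dose and the same transfection reagent, and 1 cell line stands for the tumour type. Each culture was hybridised to 1 single-colour Illumina array. The labels call the cultures of a group biological replicates without saying what separated them, so errors describe these samples only. The comparison asks which transcripts change when microRNAs of the miR-30 family, abundant in clear cell cultures, are blocked. How far the inhibitors blocked them in these cultures was not measured here.

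Heparan sulfate proteoglycans are core proteins that carry long sulfated sugar chains, which bind growth factors, morphogens and matrix proteins. Agrin and perlecan are secreted into the basement membrane, where nidogens link the laminin and collagen IV networks. Syndecans span the plasma membrane and act as co-receptors with integrins and growth factor receptors, and glypicans are held at the surface by a lipid anchor. In carcinomas this layer lies between the tumour cell and its matrix.

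The inhibitors are directed at microRNAs that recognise messenger RNAs mainly through the seed, bases 2 to 8 of the mature strand. The mature strand of miR-30a and those of its relatives miR-30c and miR-30e, from the RefSeq annotation of GRCh38.p14, are shown because they share the seed GUAAACA, in capitals.
hsa-miR-30a-5p: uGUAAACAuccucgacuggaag
hsa-miR-30c-5p: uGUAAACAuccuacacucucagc
hsa-miR-30e-5p: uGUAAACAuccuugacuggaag
The strand of miR-30a lies at chr6:71403595-71403616 on the minus strand. The strand of miR-30d, at which the other inhibitor was directed, is not shown. Target sites in the members' messenger RNAs were not analysed here.

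Over the whole series, no probe passed an adjusted p of 0.05 with limma (lowest 0.440), and 2199 of 21928 had an unadjusted p under 0.05, or 10%. A test with a separate variance for each probe and group gave 0 after adjustment and 1408 before it. The differences of all kept probes had a median of 0.01 on the log2 scale, with 5th and 95th percentiles of −0.21 and 0.20. A pair of arrays, inhibitor replicate 3 and control replicate 2, lay away from their groups. On the first principal component, which held 42.1% of the variance, inhibitor replicates 1, 2 and 3 lay at 17.5, 13.2 and −9.11, and control replicates 1, 2 and 3 at −4.12, −15.7 and −1.67. All 7 epithelial markers were detected (KRT7, KRT8, KRT18, KRT19, EPCAM, CDH1, CLDN4), and so were the 4 clear cell markers with a named probe (ANXA4, NAPSA, ARID1A, MET). Of 8 fibroblast markers 3 were detected, DCN, LUM and PDGFRA, the brightest being PDGFRA at 6.06 ± 0.17 in the inhibitor group and 6.01 ± 0.15 in the control group, and COL1A1, COL1A2, COL3A1, PDGFRB and THY1 were not. Of 7 leukocyte markers on the array 2 were detected. CD68, which many cell types express, had 8.38 ± 0.06 in the inhibitor group and 8.51 ± 0.20 in the control group, and CD14 had 5.75 ± 0.03 in the inhibitor group and 5.87 ± 0.05 in the control group, without overlap. Their summed normalized signal was 373.9 to 402.6 on the inhibitor arrays and 370.4 to 466.3 on the control arrays, and PTPRC, CD3E, CSF1R, LYZ and ITGAM were not detected on at least 3 arrays.

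Among the 10 genes agrin stood out. In the cultures given the miR-30a and miR-30d inhibitors, both AGRN probes were lower, at 0.761 and 0.752 of the control level. Perlecan was lower by a smaller amount at 0.88, and the nidogen, syndecan and glypican probes had log2 differences between −0.14 and 0.07. On 3 of the 9 kept probes (33.3%) all inhibitor values were below all control values, against 7.12% of all kept probes, and on 0 of the 9 were they all above, against 8.4%. Those 3 probes were the AGRN pair and HSPG2. With limma 0 of the 9 passed the adjusted threshold, with adjusted p between 0.44 and 0.956. In all, 6 of the 9 probes had a negative difference (66.7%) against 48.3% of all kept probes, and their median difference was −0.03. The members were chosen with these values known, and nothing is read from the shares. Values below are background-corrected, quantile-normalized signals on the log2 scale. Each difference is inhibitor minus control with the standard error of the limma fit. In that fit the variance of each probe is drawn toward a value common to all kept probes.

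**Figure D1:**
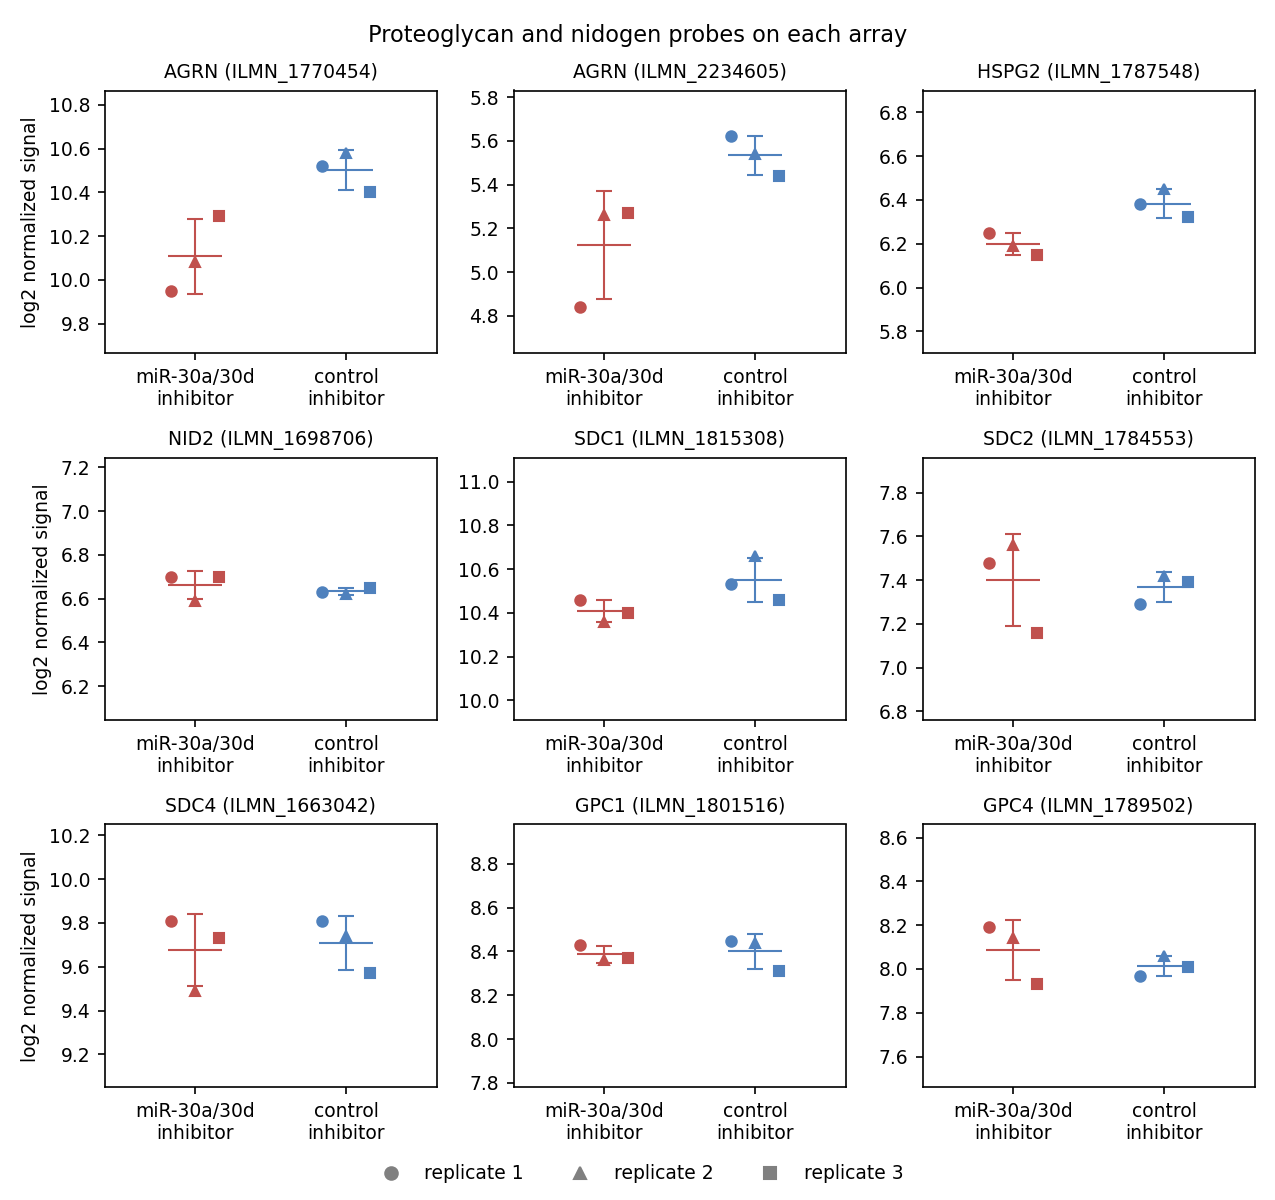
Log2 normalized signal (vertical axis, each panel spanning 1.2 log2 units) of the 9 kept probes on the 3 inhibitor arrays (red) and the 3 control arrays (blue). Symbols mark the replicate, the bar is the mean and the whisker the SD. The inhibitor points lie below every control point for both AGRN probes and for HSPG2.

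AGRN encodes agrin, the proteoglycan that clusters acetylcholine receptors at the neuromuscular junction through LRP4 and MUSK and is also a component of many epithelial basement membranes. Its brighter probe (ILMN_1770454) had 9.95, 10.08 and 10.29 on inhibitor replicates 1, 2 and 3, against 10.52, 10.58 and 10.40 on control replicates 1, 2 and 3. All inhibitor arrays were lower than all control arrays, and inhibitor replicate 3 came nearest to the controls. The means were 10.11 ± 0.18 in the inhibitor group and 10.50 ± 0.09 in the control group (SD, n = 3 each), a difference of −0.39 ± 0.10 (SE), or 0.761-fold. Centred on array medians in place of quantile normalization, the groups overlapped and the difference was −0.24, where the median of all probes was 0.10. In the main setting 0.3% of the kept probes had a lower difference. Since whole cultures were measured, fewer cells making a transcript and less of it per cell cannot be told apart.

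The second AGRN probe (ILMN_2234605), annotated to the same transcript record, gave a signal near the detection limit. It had 4.84, 5.26 and 5.27 on the inhibitor arrays, against 5.62, 5.54 and 5.44 on the control arrays. The groups again did not overlap, and inhibitor replicate 1 was the lowest array, as it was on the brighter probe. The means were 5.12 ± 0.25 in the inhibitor group and 5.53 ± 0.09 in the control group (SD, n = 3 each), a difference of −0.41 ± 0.12 (SE), or 0.752-fold. Both probes read the same 6 RNA samples, so their likeness concerns the measurement and not a second set of cultures. Without inhibitor replicate 1 the difference of this dim probe was −0.27, while that of the brighter probe was −0.31. Without the pair of arrays that stood apart the values were −0.48 and −0.45. The difference of the dim probe also moved with the background step, to −0.17 in the deposited series table, −0.20 with normexp on the regular probes, −0.22 with offset 50 and −0.25 with no background correction.

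HSPG2 encodes perlecan, a large basement membrane core protein whose chains store growth factors. Its 1 probe (ILMN_1787548) had 6.25, 6.19 and 6.15 on the inhibitor arrays, against 6.38, 6.45 and 6.32 on the control arrays. The groups did not overlap, and the spread within each group was small. The means were 6.20 ± 0.05 in the inhibitor group and 6.38 ± 0.06 in the control group (SD, n = 3 each), a difference of −0.18 ± 0.08 (SE), or 0.88-fold. With median centring it was −0.07, or −0.17 relative to all probes, and the groups overlapped. The difference was −0.11 in the series table, −0.12 with normexp and −0.13 without the pair of arrays that stood apart. Perlecan and agrin are also products of blood vessel cells. Of 7 endothelial markers 3 were detected, with a summed normalized signal of 71 to 79.3 on the inhibitor arrays and 80.2 to 82.7 on the control arrays. Of these 3, PECAM1 alone had no overlap between the groups, at 4.68 ± 0.07 in the inhibitor group and 5.00 ± 0.14 in the control group. TEK and ESAM had differences of 0.04 and 0.02, and all 3 signals were near the detection limit. CDH5, VWF, KDR and CLDN5 were not detected on enough arrays. All cultures were of the OVSAYO carcinoma line. The part of these markers in the agrin and perlecan differences was not tested.

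The nidogens gave 1 measured gene. NID2 (ILMN_1698706) had 6.70, 6.59 and 6.70 on the inhibitor arrays, against 6.63, 6.62 and 6.65 on the control arrays. The groups overlapped, and the difference was 0.03 ± 0.07 (SE). NID1 (ILMN_1674719) was detected on 0 of 3 inhibitor arrays and 0 of 3 control arrays, so no difference is given for it.

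**Figure D2:**
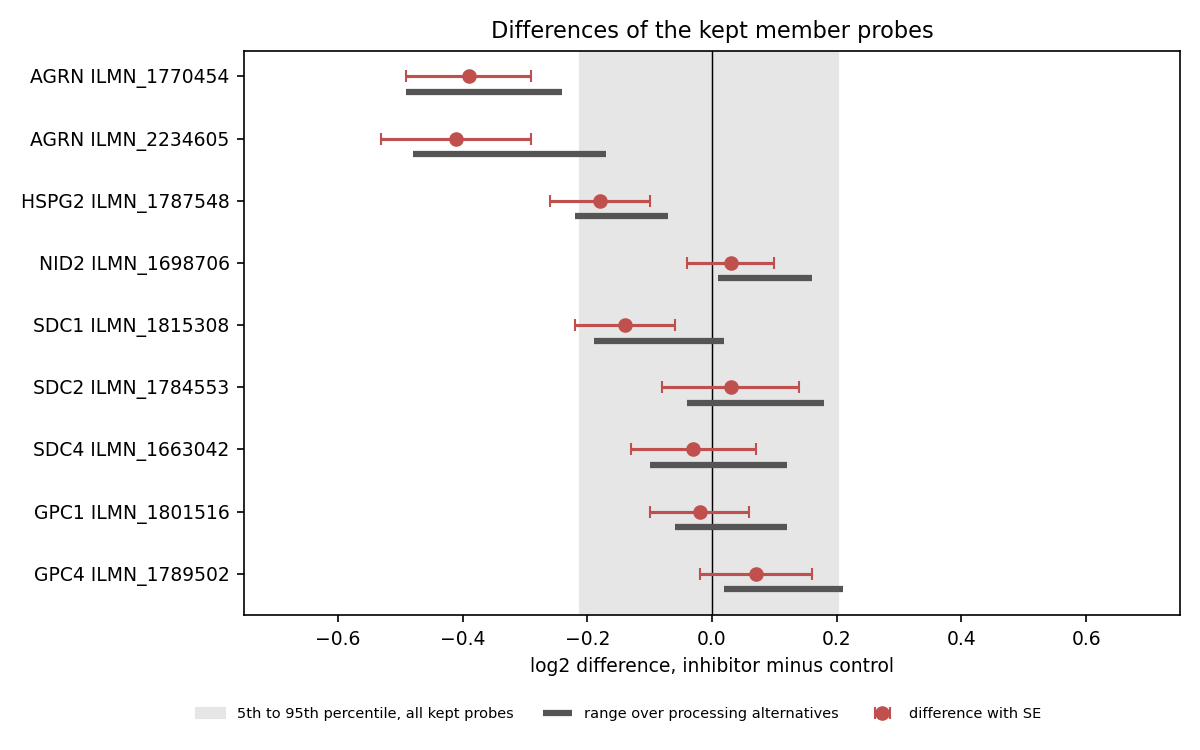
Log2 difference, inhibitor minus control (horizontal axis), of the 9 kept probes, with the standard error of the limma fit as whiskers (red) and the range over the processing alternatives (dark bar below each point). The grey band spans −0.21 to 0.20, the 5th to 95th percentile of all kept probes, and both AGRN points lie outside it.

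Of the syndecans, SDC1 is the main form of epithelia and is shed from the surface of many carcinomas. Its bright probe (ILMN_1815308) had 10.46, 10.36 and 10.40 on the inhibitor arrays, against 10.53, 10.66 and 10.46 on the control arrays. The highest inhibitor value equalled the lowest control value at this precision, and the groups were counted as overlapping. The difference was −0.14 ± 0.08 (SE). Of the further SDC1 probes, ILMN_1768953 was detected on 0 of 6 arrays and ILMN_1800038 on 1 of 3 inhibitor and 1 of 3 control arrays, although ILMN_1800038 is annotated to the same record as the bright probe. The gene therefore rests on a single probe here.

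SDC2, a syndecan of fibroblasts and many tumour cells, had 7.48, 7.56 and 7.16 on the inhibitor arrays (ILMN_1784553), against 7.29, 7.42 and 7.39 on the control arrays. Inhibitor replicates 1 and 2 lay above every control array and inhibitor replicate 3 lay below every one. The difference was 0.03 ± 0.11 (SE), and it was 0.18 when control replicate 2 and inhibitor replicate 3 were left out. SDC4, the syndecan of focal adhesions, had 9.81, 9.49 and 9.73 on the inhibitor arrays (ILMN_1663042), against 9.81, 9.74 and 9.57 on the control arrays. Both groups ranged widely and overlapped. The difference was −0.03 ± 0.10 (SE). SDC3, best known from neurons (ILMN_1802418), was detected on 2 of 3 inhibitor and 0 of 3 control arrays. Its values of 4.62, 4.55 and 4.50 in the inhibitor group and 4.23, 4.52 and 4.51 in the control group lay at the detection limit, and no fold is given.

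Neither glypican separated the groups. GPC1, a glypican raised in several carcinomas, had 8.43, 8.36 and 8.37 on the inhibitor arrays (ILMN_1801516), against 8.45, 8.44 and 8.31 on the control arrays. The groups overlapped, with a difference of −0.02 ± 0.08 (SE). GPC4 had 8.19, 8.14 and 7.93 on the inhibitor arrays (ILMN_1789502), against 7.97, 8.06 and 8.01 on the control arrays. As for SDC2, inhibitor replicates 1 and 2 were above every control array and inhibitor replicate 3 was below. The difference was 0.07 ± 0.09 (SE), and it was 0.17 without the pair of arrays that stood apart.

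**Figure D3:**
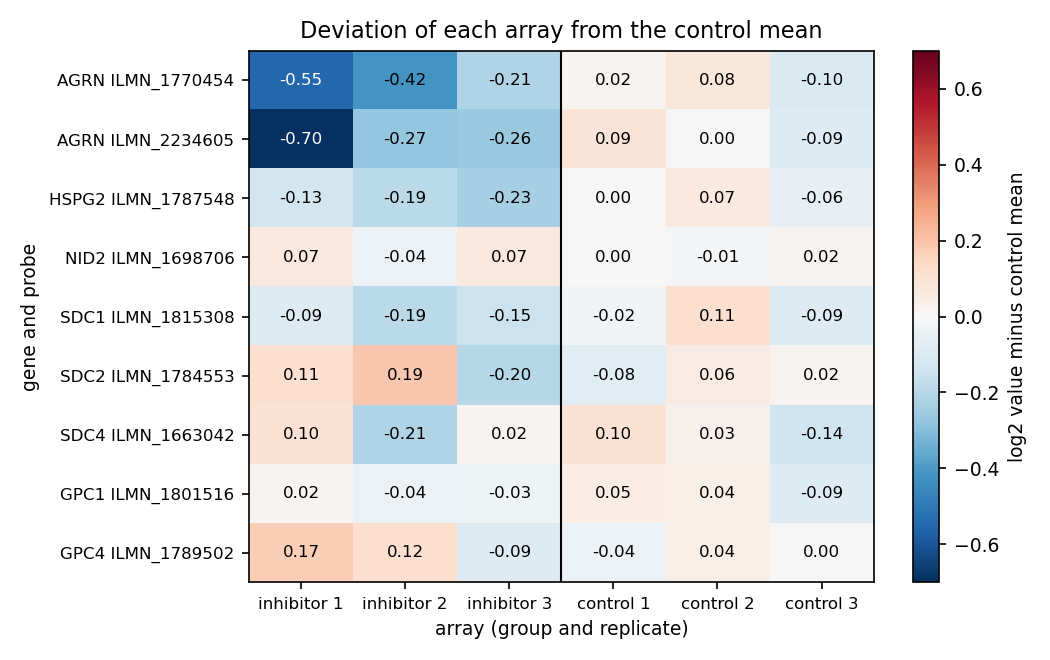
Log2 value minus the control mean of the probe (colour and printed number) for the 9 kept probes (rows) on the 3 inhibitor arrays and the 3 control arrays (columns). AGRN ranges from −0.70 to −0.21 on the inhibitor arrays, and SDC2 and GPC4 are positive on inhibitor replicates 1 and 2 and negative on inhibitor replicate 3.

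Genes outside the list with the most similar values were found by the Euclidean distance of the log2 values, centred on the control mean, over the 6 arrays, for the 3 member probes with the lowest p. Nearest to the bright AGRN probe were CENPU, a centromere protein, at a distance of 0.059, DCTN5 (dynactin) at 0.066 and ANKFY1 at 0.078. Nearest to the dim AGRN probe were DBR1 at 0.14, GRIPAP1 at 0.162 and NUP210, a nuclear pore protein, at 0.167. Nearest to HSPG2 were TM7SF3 at 0.058, SMIM10L1 at 0.068 and SENP7 at 0.069. With 12183 genes to choose from, such closeness describes these arrays only.

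The promoters of the members were compared as sequence that the choice of members did not use. RefSeq windows from 250 bases before to 50 after an annotated start (GRCh38.p14) were at hand for 8 of the 10 genes. They numbered 9, since SDC1 has 2 starts. The SDC3 window and 1 of the SDC1 windows lay at starts inside the span of the gene. AGRN and SDC2 had no window. A search for the GC box GGGCGG on both strands, with overlapping matches counted, found it in all 9 windows, against 45% of 35116 windows of that length. The E-box CACGTG was in 0 of the 9 windows (7.26% of all), and TATAAA in 0 of the 9 (11.5% of all). HSPG2 held 10 GC boxes, SDC4 8, SDC3 6, GPC1 and NID2 4 each, GPC4 2, and NID1 and both SDC1 windows 1 each, and 9.06% of all windows held at least 4. The windows of HSPG2 and SDC4 are shown as the members with the most GC boxes (capitals), HSPG2 at chr1:21937261-21937560 and SDC4 at chr20:45348375-45348674, both on the minus strand.
HSPG2: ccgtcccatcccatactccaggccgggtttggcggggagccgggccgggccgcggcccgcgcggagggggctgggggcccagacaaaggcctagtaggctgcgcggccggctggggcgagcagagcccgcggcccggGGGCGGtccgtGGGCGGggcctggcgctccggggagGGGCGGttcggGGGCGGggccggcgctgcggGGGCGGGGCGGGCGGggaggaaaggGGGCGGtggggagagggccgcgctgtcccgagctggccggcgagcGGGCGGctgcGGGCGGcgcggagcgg
SDC4: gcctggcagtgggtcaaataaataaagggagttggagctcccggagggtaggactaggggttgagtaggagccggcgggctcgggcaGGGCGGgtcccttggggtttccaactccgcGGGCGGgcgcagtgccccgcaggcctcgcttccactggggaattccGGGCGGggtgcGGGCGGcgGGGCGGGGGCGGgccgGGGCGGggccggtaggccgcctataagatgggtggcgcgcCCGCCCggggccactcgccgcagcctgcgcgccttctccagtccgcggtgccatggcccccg
GC content was 83.3% for HSPG2 and 74.0% for SDC4, and the lowest of the 9 windows, an SDC1 start, had 67.7%, against a median of 58.7% over all windows. The windows compared for GC boxes were not matched for GC content. In the main setting the inhibitor values of HSPG2 were all below the control values and those of SDC4 overlapped them. Neither gene passed the adjusted threshold with limma, and a link between GC boxes and the differences was not tested.

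The other genes that build, modify or bind these proteoglycans were taken from 7 fixed lists with 105 genes, of which 69 were measured, each by its brightest kept probe. Of these 40 had a negative difference, against 47.9% of 12183 genes, whose median was 0.01. With limma 0 of the 69 passed the adjusted threshold in either direction. At an unadjusted p under 0.05 there were 8 lower and 4 higher, where 5.33% and 4.79% of all genes were. All inhibitor values were below all control values for 13 genes and above them for 2, against 7.4% and 8.92% of all genes. Of these 13 genes 7 were basement membrane companions, as were 6 of the 8 lower at an unadjusted p under 0.05. The lists were written with earlier results of these data known, so nothing is read from these counts.

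Among 8 measured core proteins that can also carry heparan sulfate, 6 had a negative and 2 a positive difference (median −0.07), and 0 passed. COL18A1 encodes collagen XVIII, a basement membrane collagen with heparan sulfate chains and the source of endostatin, and its kept probes disagreed. The bright probe (ILMN_1806733) had 12.86, 13.01 and 13.08 on the inhibitor arrays, against 13.03, 13.19 and 13.10 on the control arrays, a difference of −0.13 ± 0.09 (limma adjusted p 0.628). The dim probe (ILMN_1701937), singled out after its value was seen, had 5.22, 5.47 and 6.05 on the inhibitor arrays, against 6.06, 6.56 and 6.28 on the control arrays. The groups of the dim probe nearly touched, with inhibitor replicate 3 just below control replicate 1. Its difference of −0.72 ± 0.19 (SE) was the lowest of all 21928 kept probes after neqc with offset 16, with a limma adjusted p of 0.44, and it ran from −0.94 without inhibitor replicate 3 to −0.54 without inhibitor replicate 1. It was −0.38 in the series table, −0.42 with normexp, −0.46 with offset 50 and −0.50 with no background correction, and there it ranked 10, 8, 6 and 3 from the lowest. With median centring it was −0.61 and the groups overlapped. GPC6, a further glypican, had −0.13 ± 0.08 and the TGF-beta co-receptor TGFBR3 had −0.09 ± 0.11. GPC2 had 0.09 ± 0.09.

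Of 9 measured chondroitin and dermatan sulfate proteoglycans, 4 were positive and 5 negative, with a median of −0.02 and 0 called. The SPARC family member SPOCK2 had 6.41, 6.64 and 6.66 on the inhibitor arrays, against 6.71, 6.78 and 6.68 on the control arrays, a difference of −0.15 ± 0.09 without overlap. VCAN (versican), a large matrix proteoglycan, had −0.10 ± 0.09. LUM (lumican) and DCN (decorin), small proteoglycans of connective tissue that also served as fibroblast markers, had 0.13 ± 0.12 and 0.08 ± 0.08. The 3 detected fibroblast markers had a summed normalized signal of 130.2 to 149.2 on the inhibitor arrays and 126.8 to 134.8 on the control arrays.

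Of the enzymes that make the chains, 0 passed the adjusted threshold. Of 7 measured genes for the linker that joins chain to core, 3 were positive and 4 negative (median −0.08), with the xylosyltransferase XYLT2 at −0.13 ± 0.08, the xylose kinase FAM20B at −0.15 ± 0.10, the galactosyltransferase B4GALT7 at −0.10 ± 0.07 and UGDH, which makes UDP-glucuronate, at 0.11 ± 0.08. Of 14 measured genes for chain growth and sulfation, 8 were positive and 6 negative (median 0.02). At an unadjusted p under 0.05, 3 of the 14 were higher and 0 lower, against 4.79% and 5.33% of all genes. EXTL2, a glycosyltransferase related to the chain polymerases, had 7.70, 7.71 and 7.63 on the inhibitor arrays, against 7.47, 7.46 and 7.50 on the control arrays. The groups did not overlap on that probe, at 0.20 ± 0.07 (limma adjusted p 0.457), while its other kept probe had −0.02. The 3-O-sulfotransferase HS3ST3A1 had 0.26 ± 0.09 and the sulfate donor transporter SLC35B3 0.24 ± 0.10, and PAPSS2, which makes that donor, had −0.17 ± 0.09.

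Enzymes that edit or degrade heparan sulfate comprised 9 measured genes, 5 positive and 4 negative, with a median of 0.02 and 0 called. The lowest values belonged to lysosomal enzymes that break the chains down in sequence, each deficient in a form of Sanfilippo disease. NAGLU, the N-acetylglucosaminidase, had 6.78, 6.87 and 6.75 on the inhibitor arrays, against 7.10, 7.08 and 7.12 on the control arrays, a difference of −0.30 ± 0.07 (limma adjusted p 0.44). SGSH, the sulfamidase, had 9.69, 9.73 and 9.79 on the inhibitor arrays, against 10.07, 9.96 and 9.92 on the control arrays, a difference of −0.25 ± 0.08 (limma adjusted p 0.44). Neither gene's groups overlapped. HGSNAT, the acetyltransferase of the same route, had −0.08 ± 0.10. The surface sulfatase SULF2 had 0.07 ± 0.08, with 0.08 and 0.04 on its other kept probes.

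Of 10 measured partners and shedding enzymes, 4 were positive and 6 negative (median −0.03). SDCBP (syntenin), the adaptor that binds the cytoplasmic tail of syndecans, had 8.87, 8.96 and 8.59 on the inhibitor arrays, against 8.56, 8.53 and 8.60 on the control arrays. Inhibitor replicates 1 and 2 were higher and inhibitor replicate 3 lay among the controls, for a difference of 0.24 ± 0.10 (limma adjusted p 0.468) and 0.03 on the other kept probe. The agrin receptor LRP4 had 0.18 ± 0.09. The sheddase ADAM10 had −0.13 ± 0.10 on its brighter probe and 0.18 on the other. TIAM1 had −0.10 ± 0.09.

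The basement membrane companions of agrin and perlecan had the lowest list median, −0.17, with 9 of 12 measured genes negative, 3 positive and 0 called. In 7 of the 12 the inhibitor values were all below the control values, against 7.4% of all genes. LAMB1 and COL4A2 were known to be low on these arrays before the list was written, so its count is no independent evidence of direction. LAMB1, a laminin chain, had −0.52 ± 0.09 on its brighter probe and 0.13 on the other. The collagen IV chains COL4A2 and COL4A1 had −0.50 ± 0.11 and −0.34 ± 0.10, and LAMB2 had −0.22 ± 0.07. All 4 had a limma adjusted p between 0.44 and 0.45. LAMC1, the laminin chain to which nidogens bind, had 13.72 ± 0.06 in the inhibitor group and 13.73 ± 0.05 in the control group, a difference of −0.02 ± 0.08.

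**Figure D4:**
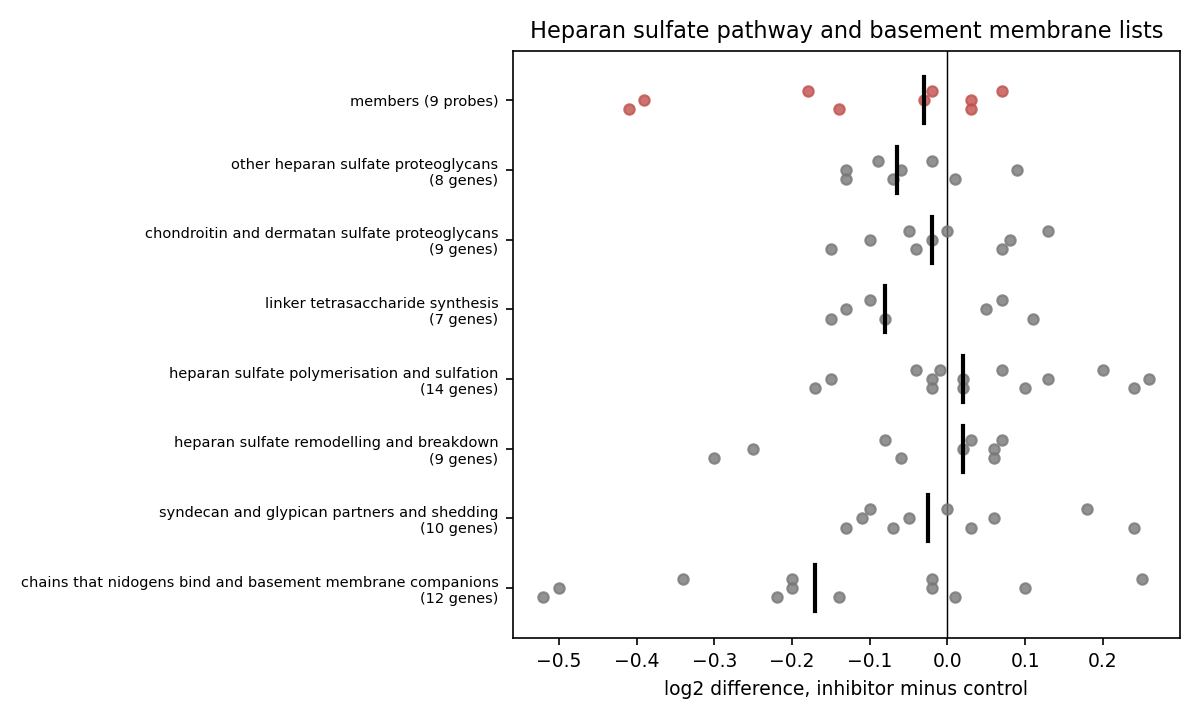
Log2 difference, inhibitor minus control (horizontal axis), of the 9 member probes (red) and of the 69 genes of the 7 other lists (grey, 1 probe per gene), with the median of each list as a black bar. The basement membrane companions have the lowest median, −0.17, and the other medians lie between −0.08 and 0.02.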

How the data were processed

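The deposited array tables give the mean bead signal of each probe, an intensity on a linear scale without background subtraction or normalization, the bead SD and number, and a detection score, a fraction that the authors' software made and that rises with signal. Per the submitters' processing notes, BeadStudio (version not given in the sources used here) made them. Another deposited table of the series holds intensities mapped onto control replicate 1. Its probe identifiers were joined to the array tables by rank pattern, unique for 48803 probes, and symbols came from the supplied platform annotation. The files name no genome build. The design text calls the hairpins mimics, and the sample labels, which call them inhibitors, were followed.

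Signals were corrected and quantile-normalized with limma's neqc (limma 3.58.1, R 4.3.3, offset 16). Probes with a score above 0.95 on at least 3 arrays were kept and tested, two-sided, with lmFit and eBayes and Benjamini-Hochberg adjustment over 21928 probes. Genes outside the members are represented by the kept probe with the highest mean. The members and lists were chosen with earlier results of these data known. Named are all members, the 4 genes of each list with the lowest p, and the 3 genes nearest to each of 3 member probes. COL18A1's dim probe and LAMC1 were added after their values were seen. On simulated arrays of 21928 probes with independent noise, 34% of 1.25-fold and 96% of 1.5-fold changes were recovered, and 18 unchanged probes were called. Each fold was planted in 50 probes. Variation shared between probes, as on the first principal component, was not simulated, so these shares may not hold for the real arrays. Alternatives covered background, normalization, filter, offset, spread, weights, replicate block and left-out arrays. Arrays have no read depth, and their number limits precision. The labels do not say whether replicate numbers pair samples, and the main fit used no pairing. Figures used matplotlib 3.10.9.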

Additional observations from a re-analysis of the deposited data

How the results depend on the processing

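Leaving out control replicate 2 and inhibitor replicate 3 together was added after the data were seen. Under all 18 alternatives 0 probes and 0 list genes passed the adjusted threshold with limma or Welch's test, against 2199 probes at an unadjusted p under 0.05, a number that ran from 1304 to 4259 with 1 array left out. The member probes with a negative difference numbered 6, and 5 to 7 with 1 array left out, and their median was −0.03, and −0.099 to −0.004 with 1 array left out. Median centring raised the median of all kept probes to 0.10, leaving 3 member probes negative with a median of 0.117, and split the unadjusted calls into 4099 higher and 248 lower. Under it the AGRN probes had −0.24 and −0.35, or −0.34 and −0.45 relative to all probes. HSPG2 had −0.07, or −0.17 relative to all probes. The groups of the bright AGRN probe and of HSPG2 overlapped. The dim AGRN probe had −0.17 in the series table, −0.20 with normexp and −0.22 with offset 50, settings in which the bright one had −0.38. AGRN, HSPG2, NID2 and GPC4 kept their sign in all 17 refits, while SDC1, SDC2, SDC4 and GPC1 changed it in 1, 3, 3 and 4. Signs were taken without subtracting the median of all probes. With median centring SDC1, SDC4 and GPC1 had 0.02, 0.12 and 0.12, or −0.08, 0.02 and 0.02 relative to all probes. The dim COL18A1 probe had −0.38 in the series table. Deviations of same-numbered replicates correlated at 0.089, −0.258 and −0.213, and with the replicate block 0 probes passed, 6 member probes were negative and their median was −0.03. Of 48803 probes 21928 had signal above background on at least 3 arrays, and nothing is said of the others. The cause of these changes was not tested.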

Other observations

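Each probe was read on many beads, which gives an error of the bead mean beside the SD between arrays of a group, both on the log2 scale. For AGRN the median bead error was 0.0412 on the bright probe and 0.121 on the dim one, and the SD between arrays was 0.139 and 0.186. For HSPG2 the bead error was 0.0648 and the SD 0.058, and for NID2 0.0807 and 0.046. For SDC1 the bead error was 0.0565 and the SD 0.08, for SDC2 0.0783 and 0.156, and for SDC4 0.0539 and 0.144. For GPC1 the bead error was 0.0407 and the SD 0.062, and for GPC4 0.0521 and 0.102. Whether these values differ from each other was not tested.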
